A study of Mus musculus with 144 samples.

Results

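The 10 genes described here (Stab1, Stab2, Clec4g, Fcgr2b, Lyve1, Kdr, Dnase1l3, Gpr182, Eng and Ptprb) are named as markers of the endothelial cells that line the liver sinusoids. They were listed by name, with earlier results of these data known, and all 10 were found among the 51912 gene symbols counted. The study sequenced the 3′ ends of mRNA in 144 mouse liver libraries, which form 4 series of 36. In wild-type mice the total, the nuclear and the polysomal RNA were each sequenced, and in Bmal1-/- mice, which lack the clock activator BMAL1, the total RNA. Livers were sampled at ZT 2, 6, 10, 14, 18 and 22 (zeitgeber time, counted in hours from lights on), with 6 libraries for every time and series. All mice were labelled male C57BL/6J, kept in equal spans of light and dark with free access to food and water, and no age was given. Nuclei came from frozen tissue through hypotonic washes and a sucrose cushion, and polysomes from frozen tissue crushed with cycloheximide and run on a sucrose gradient. The labels do not say that same-numbered libraries of the wild-type series came from one liver, nor that replicates were separate animals, so the p-values measure the spread between these libraries.

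Sinusoidal endothelial cells are a thin, perforated vessel lining without a continuous basement membrane, and they clear waste macromolecules from portal blood by endocytosis. Stabilin-1 (Stab1) and stabilin-2 (Stab2) are large scavenger receptors, LYVE1 binds hyaluronan, CLEC4G is a C-type lectin, and FCGR2B takes up immune complexes. KDR is the main VEGF receptor, endoglin (Eng) is a co-receptor for BMP9 and BMP10, VE-PTP (Ptprb) is a phosphatase that acts on the angiopoietin receptor TIE2, GPR182 is an atypical chemokine receptor, and DNASE1L3 is a secreted nuclease. Whole liver is mostly hepatocyte RNA, so fewer endothelial cells and less RNA per endothelial cell cannot be told apart in these data.

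The smallest and largest library had 5316601 and 9831142 counts in the wild-type total series, 1662449 and 6620128 in the nuclear, 2578048 and 13068044 in the polysomal and 4379549 and 14281894 in the Bmal1-/- series. Levels are in CPM, a gene's counts scaled to a fixed library total. The libraries count transcript ends, so CPM was not divided by transcript length. The Arntl gene, which encodes BMAL1, had 0.251 to 19.3 CPM in wild-type and 5.17 to 18.6 CPM in Bmal1-/- livers. A 3′ read can lie outside the deleted part of the gene, so this does not check the genotype. Xist was above 100 CPM in 4 of the 144 libraries although all were labelled male. Without such libraries, 5 of the 10 genes still differed between Bmal1-/- and wild type, as with them.

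In wild-type total RNA the 10 genes together held 310.5 to 442.8 CPM, with a median of 371.3. Ptprb (86.1 CPM ± 11.4, SD, n = 36) and Kdr (84.1 ± 10.8, SD, n = 36) were the highest and differed by less than their spread. Dnase1l3 followed at 61.7 ± 9.80 CPM and Clec4g at 40.8 ± 6.12 CPM. Lyve1 (24.7 ± 9.15 CPM), Fcgr2b (24.6 ± 4.19 CPM) and Stab2 (24.5 ± 4.93 CPM) lay within each other's spread. Stab1 (14.7 ± 3.70 CPM), Eng (9.58 ± 2.16 CPM) and Gpr182 (2.45 ± 0.880 CPM) were the lowest. Gpr182 had a mean of 19.1 counts per library, and its values are the least precise. Lyve1 varied most between libraries, with an SD of 37.1% of its mean, and Kdr least, at 12.9%.

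**Figure D1:**
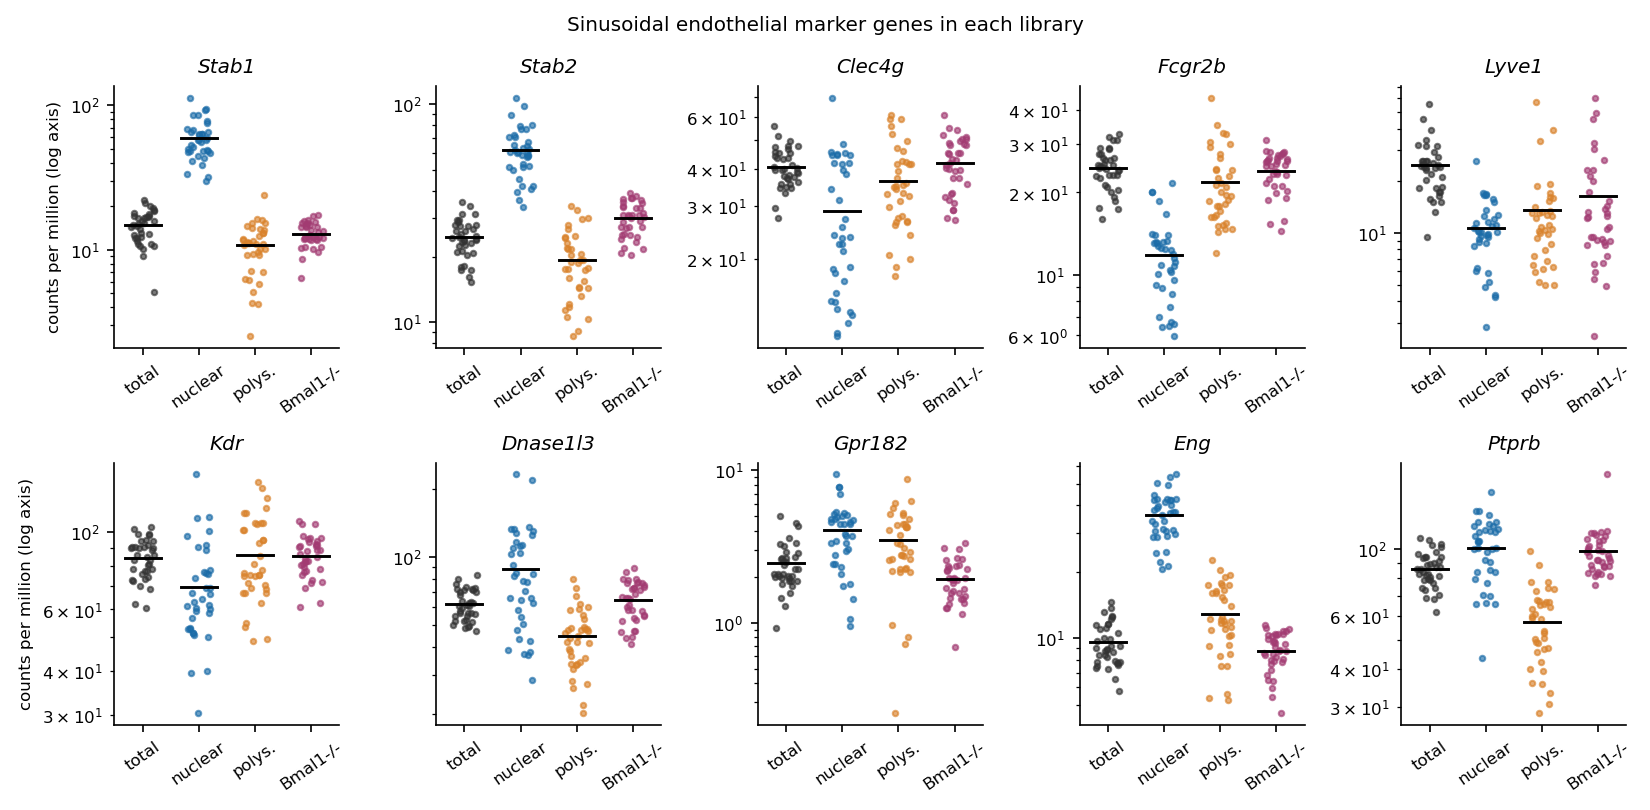
Level of each of the 10 genes in each of the 144 libraries, in CPM on a log axis. Points are libraries, 36 in each of the 4 series, and bars are means. All 36 nuclear libraries lie above all 36 total RNA libraries for Stab1 and Eng, while Lyve1 has its widest spread in Bmal1-/- livers.

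The other markers of the tissue bear on whole-liver levels. None of the genes in the Kupffer cell, stellate cell, bile duct, lymphocyte or red blood cell lists was at 0 in a whole series. Summed Kupffer cell markers (10 genes) had a range of 209.9 to 1169 CPM in wild-type total RNA, 161.4 to 916.4 in nuclear, 179.8 to 1147 in polysomal and 151 to 625.8 in Bmal1-/- RNA. Summed stellate cell markers (12 genes) had a range of 275.9 to 450.9 CPM in wild-type and 371.2 to 593.6 CPM in Bmal1-/- livers. Summed hemoglobin genes and Alas2 had a median of 2585 CPM in wild-type total RNA, 1985 in nuclear, 8852 in polysomal and 1464 in Bmal1-/- RNA. In nuclear RNA 3 of 10 Kupffer cell genes were higher and 5 lower than in total RNA, and 2 of 5 red blood cell genes were lower. Of 12 stellate cell genes 8 were higher and 3 lower. The 12 include Des, with 0.758 CPM in total and 3.815 CPM in nuclear RNA. Des had enough counts to be tested only through the nuclear libraries, so a call for it is no evidence of a rise. In polysomal RNA 3 of 10 Kupffer cell genes were higher and 4 lower, 8 of 11 stellate cell genes lower and 4 of 5 red blood cell genes higher. In Bmal1-/- RNA 9 of 10 Kupffer cell genes and 4 of 5 red blood cell genes were lower, and of 11 stellate cell genes 3 were higher and 3 lower. Of the bile duct list 2 genes could be tested, and both were higher in Bmal1-/- livers: Sox9 (22.5 ± 12.2 CPM in wild-type and 60.5 ± 20.7 CPM in Bmal1-/-, SD, n = 36) and Spp1 (6.87 ± 2.46 and 17.4 ± 10.6 CPM). Of the lymphocyte list only Ptprc could be tested, and it was lower in Bmal1-/- livers (log2 difference -0.58) and on polysomes (-0.68). Of 9 hepatocyte genes, 2 were higher and 5 lower in nuclear RNA, 1 higher and 6 lower on polysomes (median -0.45) and 4 higher and 1 lower in Bmal1-/- livers. Of all genes tested, 41.6% were higher and 42.1% lower in nuclear RNA. On polysomes 38.4% were higher and 37.6% lower, and in Bmal1-/- livers 21.7% and 22.4%. Several of the counts above, such as those of Kupffer cell genes in nuclear and polysomal RNA, are near these shares. Whether a list differs from all genes, and the part of the listed cell types in the results below, was not tested.

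The comparison of nuclear with total RNA asks how each transcript's share of the counts differs between these 2 kinds of whole-liver RNA. How a transcript is divided within a cell was not measured. The 10 genes split: 6 were higher and 4 lower in nuclear RNA by edgeR's quasi-likelihood test with Benjamini-Hochberg adjustment over all 11864 genes tested and a threshold of 0.05. Of all genes tested, 41.6% were higher and 42.1% lower, so a call in either direction was common to most genes. Their median log2 difference was 0.31, against -0.0069 over all genes. The mean CPM of each of the 10 differed in the same direction at all 6 time points. At ZT 6 the means of Dnase1l3 (70.33 CPM in nuclear and 70.1 in total RNA) and Gpr182 (2.33 and 2.28) were nearly equal. Their medians there went the other way (71.42 and 72.01 CPM for Dnase1l3, 1.939 and 1.963 CPM for Gpr182).

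Stab1, Eng and Stab2 had the largest nuclear excess. Stab1 had 5.08, 15.0 and 21.99 CPM as its lowest, median and highest value in total RNA, and 29.9, 57.2 and 112.7 in nuclear RNA. The lowest nuclear library was above the highest total RNA library, and the fitted difference was 1.94 ± 0.09 (log2, SE; adjusted p = 2.576e-31). Eng, the BMP co-receptor, had 5.75, 8.97 and 14.6 CPM in total RNA and 20.6, 37.1 and 55.1 CPM in nuclear RNA. Its ranges did not overlap either, with a difference of 1.86 ± 0.08 (log2, SE; adjusted p = 7.098e-33). Of all genes tested, 7.49% had ranges of the 36 and 36 libraries that did not overlap. Stab2 had 15.2, 24.2 and 35.8 CPM in total RNA and 33.8, 60.1 and 106.9 CPM in nuclear RNA. All but 1 of its nuclear libraries, 35 of 36, were above every total RNA library, and the difference was 1.26 ± 0.07 (log2, SE; adjusted p = 5.777e-26).

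The promoter table of RefSeq (GRCm38.p6) holds 6 of the 10 genes. For the 3 genes with the largest nuclear excess, the 250 bases before the start given in that table are shown, so that their proximal promoters can be compared. They are written 5′ to 3′ on the strand of the gene, and capitals mark the letters GGAA, the core of the sites bound by ETS factors, or their reverse complement TTCC. They are Stab1 at chr14:31168642-31168891 (minus strand), Stab2 at chr10:87007943-87008192 (minus strand) and Eng at chr2:32646345-32646594 (plus strand). The table's starts of Stab1 and Stab2 lie inside the annotated gene spans, which end at 31168651 and 87008038, so part of each of these windows is within the gene.
Stab1: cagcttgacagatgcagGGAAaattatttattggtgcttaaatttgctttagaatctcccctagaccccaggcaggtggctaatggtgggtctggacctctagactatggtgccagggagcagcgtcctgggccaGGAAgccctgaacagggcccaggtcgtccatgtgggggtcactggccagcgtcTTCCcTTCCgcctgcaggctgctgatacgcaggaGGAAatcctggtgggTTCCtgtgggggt
Stab2: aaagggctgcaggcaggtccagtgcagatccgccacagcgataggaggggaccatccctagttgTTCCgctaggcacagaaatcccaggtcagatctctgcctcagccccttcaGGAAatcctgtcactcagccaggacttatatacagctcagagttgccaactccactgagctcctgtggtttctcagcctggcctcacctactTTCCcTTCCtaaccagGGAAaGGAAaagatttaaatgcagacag
Eng: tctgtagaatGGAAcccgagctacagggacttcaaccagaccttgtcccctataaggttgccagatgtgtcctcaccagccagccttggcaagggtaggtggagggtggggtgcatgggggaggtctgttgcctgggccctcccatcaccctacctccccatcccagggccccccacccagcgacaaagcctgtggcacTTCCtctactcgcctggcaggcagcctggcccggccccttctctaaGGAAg
GGAA was searched on both strands. It occurred 6 times in Stab1, 6 in Stab2 and 3 in Eng, and 5 times in Clec4g, 4 in Fcgr2b and 4 in Kdr. It was present in 93.5% of all 32851 promoter windows of this length, with a median of 3 matches, so its presence is common to nearly all genes. The E-box CACGTG, the letters that BMAL1 with CLOCK can bind, occurred in none of the 6 windows and in 6.02% of all windows. The letters AGATAA, which some zinc finger factors of endothelial cells bind, were likewise in none of the 6 windows and in 9.99% of all. These are letter matches in this window only.

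Gpr182, Dnase1l3 and Ptprb were also higher in nuclear RNA, by less. Gpr182 had a median of 2.16 CPM in total RNA and 4.10 in nuclear RNA (log2 difference 0.62 ± 0.13, SE; adjusted p = 1.898e-05). Dnase1l3 ran from 46.9 to 83.4 CPM in total RNA and from 28.3 to 233.3 CPM in nuclear RNA. The nuclear libraries lay on both sides of the total RNA range, with 17 above it and 7 below (log2 difference 0.46 ± 0.13, SE; adjusted p = 8.582e-04), and with libraries numbered 1 to 3 alone the difference was 0.28 (adjusted p = 0.2032). For Ptprb the difference was 0.16 ± 0.06 (log2, SE; adjusted p = 0.01240). It was -0.02 with libraries 1 to 3 alone (adjusted p = 0.8234) and 0.05 when the minimum mean was lowered to 1 count (adjusted p = 0.4721).

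Lyve1, Fcgr2b, Clec4g and Kdr were lower in nuclear RNA. Lyve1 had 9.40, 24.05 and 55.9 CPM as its lowest, median and highest value in total RNA and 2.84, 10.1 and 25.9 CPM in nuclear RNA. It was 2.39-fold lower (log2 difference -1.26 ± 0.11, SE, adjusted p = 7.328e-17 by edgeR). Its ranges overlapped over all libraries but not at 3 of the 6 time points, and the share of all genes with ranges apart at single time points was not counted. Fcgr2b had 16.0, 24.7 and 32.7 CPM in total RNA and 5.96, 11.7 and 21.7 CPM in nuclear RNA. It was 2.18-fold lower (adjusted p = 1.172e-20), and 31 of 36 nuclear libraries were below every total RNA library. Clec4g had a log2 difference of -0.57 ± 0.12 (SE; adjusted p = 1.981e-05) and Kdr of -0.34 ± 0.07 (SE; adjusted p = 2.231e-05). Kdr was not called with libraries numbered 4 to 6 alone (-0.19, adjusted p = 0.06878).

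**Figure D2:**
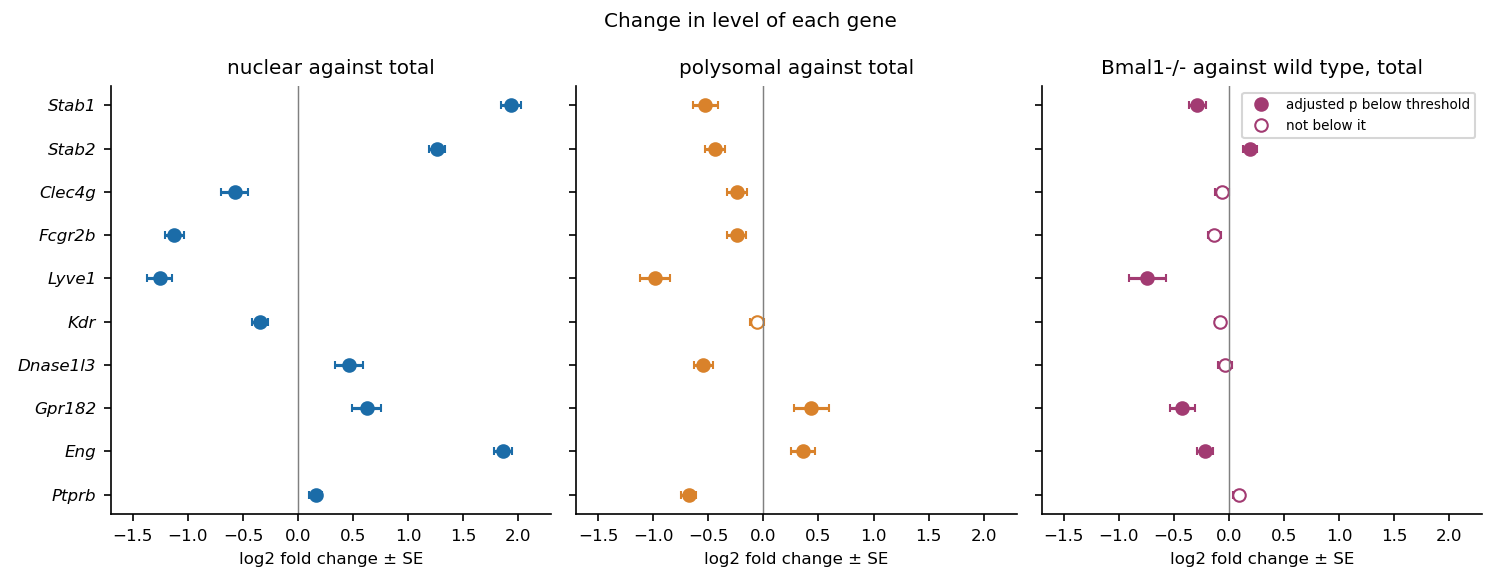
Log2 fold change ± SE of each of the 10 genes in nuclear and polysomal RNA against wild-type total RNA, and in Bmal1-/- against wild-type total RNA, from the fit over all genes; filled points passed the threshold on the adjusted p and open points did not. Stab1 lies at 1.94 and Eng at 1.86 in nuclear RNA, and Lyve1 is below 0 in all 3 comparisons.

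The comparison of polysomal with total RNA asks which transcripts are more or less represented on ribosomes. Of the 10 genes, 7 were lower, 2 were higher and Kdr was not called. Over all 11556 genes tested, 37.6% were lower and 38.4% higher. The ranges of the 36 and 36 libraries overlapped for every one of the 10, while they did not overlap for 4.44% of all genes. The median log2 difference of the 10 was -0.34, against 0.01 over all genes.

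Lyve1, Ptprb, Dnase1l3, Stab1 and Stab2 had the largest falls. Lyve1 had a lowest, median and highest value of 4.95, 10.9 and 57.2 CPM in polysomal RNA, against 9.40, 24.05 and 55.9 CPM in total RNA. Most of its polysomal libraries were thus below the total RNA median, and a single library reached the top of the range (log2 difference -0.99 ± 0.14, SE; adjusted p = 1.506e-09). Ptprb had 28.7, 58.9 and 98.7 CPM in polysomal RNA against 62.1, 86.0 and 108.7 CPM in total RNA, and 21 of 36 polysomal libraries were below every total RNA library. Its difference was -0.68 ± 0.07 (log2, SE; adjusted p = 1.416e-14). The differences of Dnase1l3 (-0.55 ± 0.09), Stab1 (-0.53 ± 0.11) and Stab2 (-0.44 ± 0.09) were called by edgeR (adjusted p = 4.467e-08, 2.966e-05 and 1.810e-05).

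Fcgr2b and Clec4g each differed by -0.24 (log2; adjusted p = 0.007048 and 0.01153), and Gpr182 by 0.43 ± 0.16 and Eng by 0.36 ± 0.11 (SE; adjusted p = 0.01202 and 0.001933). These smaller differences rested on some of the libraries. With libraries numbered 1 to 3 alone, 4 of the 10 genes were called, and Dnase1l3 (adjusted p = 0.05840), Stab1 (0.09867), Stab2 (0.2079), Fcgr2b (0.8438) and Clec4g (0.6844) were not. With libraries 4 to 6 alone, Eng (0.07, adjusted p = 0.6648) and Gpr182 (0.15, adjusted p = 0.4922) were not called and Kdr was (-0.28, adjusted p = 0.003450). Without the polysomal libraries numbered 1, Gpr182 (0.26, adjusted p = 0.1319) and Eng (0.19, adjusted p = 0.08003) were not called and Kdr was (-0.17, adjusted p = 0.008434). Lyve1 and Ptprb were called under every alternative tried for this comparison, 9 for each. Kdr had 48.9, 76.8 and 138.8 CPM as its lowest, median and highest polysomal value against 60.5, 85.2 and 103.1 CPM in total RNA. Its difference of -0.06 ± 0.06 (log2, SE; adjusted p = 0.3853) has a 95% interval of -0.18 to 0.06, its difference ran from -0.28 to 0.12 over the alternatives, and it was -0.15 and called by DESeq2 (adjusted p = 0.02419) and with median-ratio size factors (adjusted p = 0.02937).

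The comparison of the genotypes asks what loss of BMAL1 does to these transcripts. Stab2 was higher, Lyve1, Gpr182, Stab1 and Eng were lower, and the other 5 genes were not called. Over all 12082 genes tested, 21.7% were higher and 22.4% lower, so the share of the 10 that was called is near that of all genes. No gene of the 10 had ranges that did not overlap, as 0.0579% of all genes had. The median log2 difference was -0.11, against -7.530e-04 over all genes. In CPM the 10 genes together had a mean of 373.2 in wild-type and 384.1 in Bmal1-/- livers, so the small median rests on the scaling used.

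Lyve1 showed the largest difference between the genotypes and the widest spread. Its lowest, median and highest values were 2.51, 12.2 and 60.4 CPM in Bmal1-/- and 9.40, 24.05 and 55.9 CPM in wild-type livers. In Bmal1-/- livers 14 of 36 libraries were below every wild-type library and 1 was above all of them. The difference was -0.74 ± 0.17 (log2, SE; adjusted p = 2.254e-04), and the Bmal1-/- mean was the lower one at all times but ZT 22. The libraries differed by their number: those numbered 1 to 3 had 24.8 ± 9.66 CPM in wild-type and 21.5 ± 16.7 CPM in Bmal1-/- (SD, n = 18 each), and those numbered 4 to 6 had 24.5 ± 8.90 and 11.25 ± 4.48 CPM. With libraries 1 to 3 alone the difference was -0.45 and was not called (adjusted p = 0.1295). Kupffer cell markers were lower in the same livers, 9 of 10 called and none higher, with a median of -0.60 (log2); some macrophages also carry LYVE1, and the part of these cells in the Lyve1 difference was not tested.

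The other differences between the genotypes were small. Stab2 had 15.2, 24.2 and 35.8 CPM as lowest, median and highest value in wild-type and 20.4, 30.6 and 39.2 CPM in Bmal1-/- livers. Its difference was 0.19 ± 0.06 (log2, SE; adjusted p = 0.01261) and in the same direction at all 6 times, and with libraries numbered 4 to 6 alone 0.18 (adjusted p = 0.06709). Its relative Stab1 went the other way, by -0.29 ± 0.08 (SE, adjusted p = 0.001586 by edgeR), and was called under all 8 alternatives. None of these dealt with the sites of the opposite strand that overlap the ends of Stab1 and Eng, described with the sites below. Gpr182 differed by -0.42 ± 0.12 (SE; adjusted p = 0.001999) and Eng by -0.22 ± 0.07 (SE; adjusted p = 0.01271). With libraries 1 to 3 alone Gpr182 was at -0.25 (adjusted p = 0.1980) and Eng at -0.07 (adjusted p = 0.6256). Clec4g (95% interval -0.19 to 0.06), Dnase1l3 (-0.16 to 0.09), Kdr (-0.17 to 0.01), Ptprb (-0.01 to 0.19) and Fcgr2b (-0.25 to -0.01, adjusted p = 0.07133) were not called by edgeR. In mean CPM, Clec4g (40.8 in wild-type and 42.0 in Bmal1-/-), Dnase1l3 (61.7 and 64.7) and Kdr (84.1 and 85.3) were slightly higher in Bmal1-/- livers, against the sign of their fitted differences. For Ptprb and Fcgr2b the 2 scales had the same sign.

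Time of day was tested as a cosine and sine of 24 h within each series. None of the 10 genes was called rhythmic by edgeR in any series, and 1 in wild-type total, 1 in nuclear, 2 in polysomal and 1 in Bmal1-/- RNA had an unadjusted p under 0.05. Over all genes tested, 18.9% were rhythmic in wild-type total, 5.99% in nuclear, 7.9% in polysomal and 0.00825% in Bmal1-/- RNA. DESeq2 called 1 of the 10 in wild-type total RNA and 0 in the other series. That gene was Lyve1, with a fitted peak-to-trough ratio of 1.57, a peak at ZT 21.3 and an adjusted p of 0.06552 by edgeR and 0.04900 by DESeq2. With time point as a factor in edgeR it was called (adjusted p = 0.03083).

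In wild-type total RNA the means were 31.9 ± 12.8 CPM at ZT 2, 18.5 ± 5.16 at ZT 6, 18.3 ± 6.05 at ZT 10, 28.2 ± 9.17 at ZT 14, 23.5 ± 6.10 at ZT 18 and 27.6 ± 7.34 at ZT 22 (SD, n = 6 each). The lowest means were at ZT 6 and ZT 10, and the ranges of all time points overlapped. The fitted peak lay at ZT 18.6 in nuclear RNA (ratio 1.75, adjusted p = 0.1137), at ZT 23.1 in polysomal RNA (ratio 1.78, adjusted p = 0.2210) and at ZT 21.5 in Bmal1-/- RNA (ratio 2.20, adjusted p = 0.9999). In Bmal1-/- livers the mean was 28.0 ± 20.2 CPM at ZT 22 and 10.3 ± 4.003 CPM at ZT 6 (SD, n = 6 each). The other 9 genes had fitted ratios of 1.05 to 1.23 in wild-type total RNA, with a median over the 10 of 1.16 against 1.25 over all genes.

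A difference in rhythm from wild-type total RNA was called for none of the 10 genes in the edgeR interaction test. For nuclear RNA 0% of all genes were called (0 of 11864, 244 at an unadjusted p under 0.05, and 0 by DESeq2). For polysomal RNA it was 0% as well (0 of 11556, 681 at an unadjusted p under 0.05, and 15 by DESeq2). For Bmal1-/- RNA 5.11% of all genes were called, and among the 10 only Clec4g had an unadjusted p under 0.05 (adjusted p = 0.2146).

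**Figure D3:**
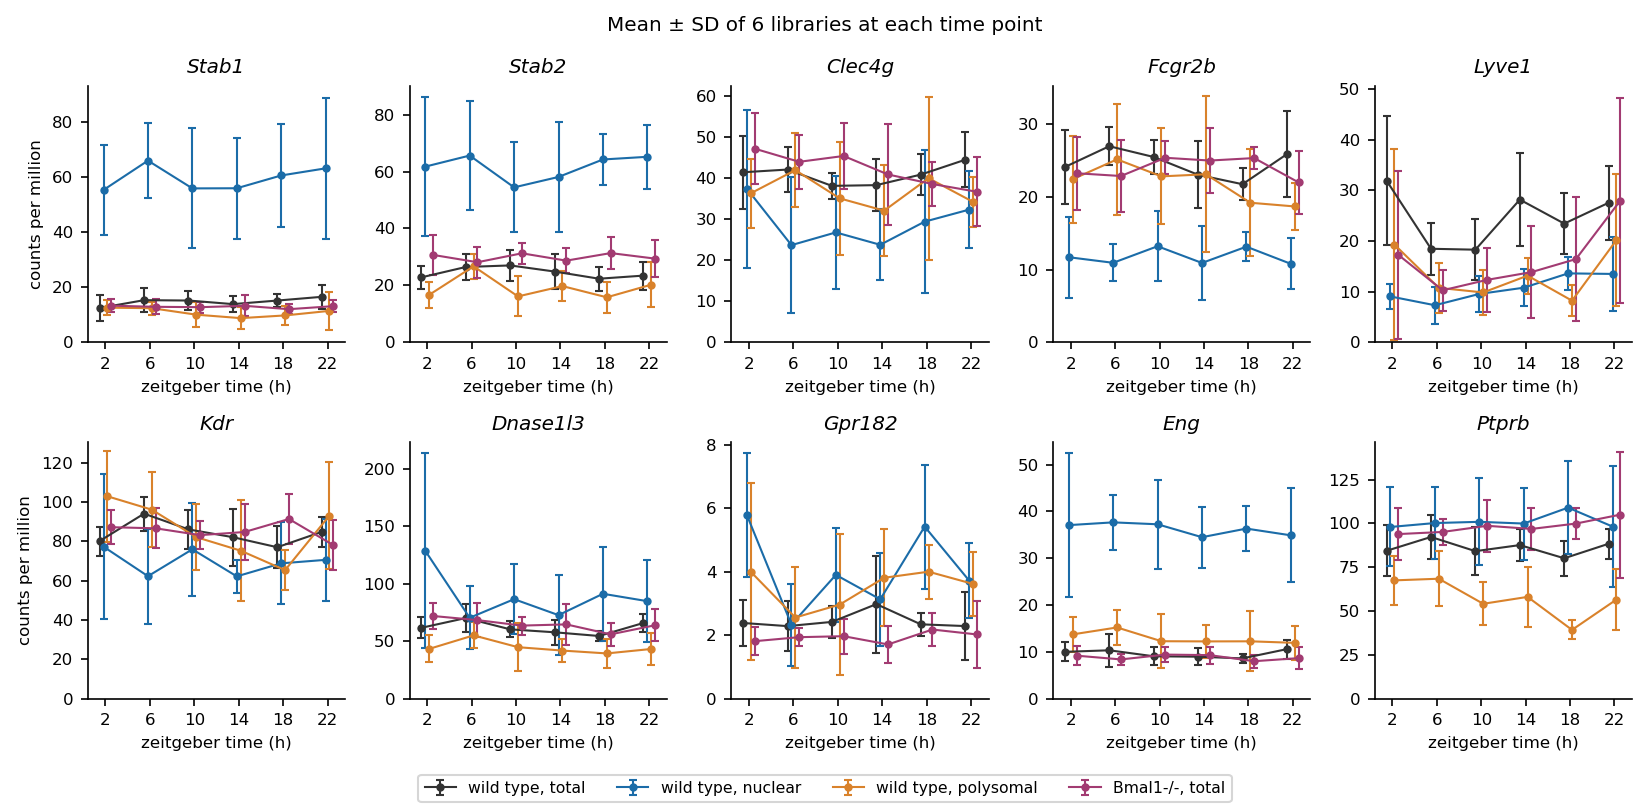
Level of each of the 10 genes by zeitgeber time in the 4 series, as mean ± SD of 6 libraries in CPM. The nuclear series of Stab1, Stab2 and Eng lie above the others at all 6 times, and Lyve1 in wild-type total RNA is lowest at ZT 6 and ZT 10.

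Other endothelial genes were compared as fixed lists. Of 11 further sinusoidal genes tested, 3 were higher and 5 lower in nuclear RNA, with a median log2 difference of -0.19. The ADAM family gene Adam23 (0.92 ± 0.09, SE) and the transcription factor Maf (0.81 ± 0.06) were highest, and Oit3 (-1.22 ± 0.11) and the ligand Bmp2 (-1.17 ± 0.10) lowest. Of 19 genes shared by most endothelial cells, 12 were higher and 3 lower, with a median of 0.78, beside 41.6% higher and 42.1% lower over all genes; Ushbp1 (2.24 ± 0.11) and Egfl7 (2.16 ± 0.10), a secreted endothelial protein, rose most, and Clec14a (-0.94 ± 0.10) and Adgrl4 (-0.46 ± 0.10) fell most. Of 7 genes tested of the list set up for larger vessels, 6 were higher and 1 lower. The clotting factor carrier Vwf (2.29 ± 0.15) and the receptor Kit (1.63 ± 0.15) rose most, and Wnt2 fell by 0.38. Whether the genes of this larger-vessel list mark larger vessels rather than sinusoids in these livers was not tested. All named differences passed the adjusted p threshold in edgeR.

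On polysomes the further sinusoidal genes had 2 higher and 6 lower of 11, where Plxnc1 (0.44 ± 0.10, SE) and Bmp2 (0.31 ± 0.06) rose and the clotting factor F8 (-0.92 ± 0.09) and Flt4 (-0.70 ± 0.12), the VEGFC receptor, fell. Of the shared endothelial genes 6 rose and 7 fell of 19, with Ramp2 (0.74 ± 0.07) and Emcn (0.68 ± 0.16) highest and Ushbp1 (-1.63 ± 0.19) and Robo4 (-0.9995 ± 0.16) lowest. Of 9 larger-vessel genes 3 rose and none fell, led by Kit (1.06 ± 0.19) and the ephrin gene Efnb2 (0.84 ± 0.18). In Bmal1-/- livers 4 of 11 further sinusoidal genes rose, led by Plxnc1 (0.44 ± 0.08) and Bmp2 (0.34 ± 0.05), and Oit3 fell by 0.37. Of the shared endothelial genes 1 rose, the orphan receptor Tie1 (0.47 ± 0.08), and 10 of 19 fell, with Robo4 (-0.38 ± 0.08) and Sox17 (-0.36 ± 0.14) first. Among larger-vessel genes Wnt2 rose (0.41 ± 0.12) and the Notch ligand Dll4 fell (-0.63 ± 0.14). Over all genes tested, 38.4% were higher and 37.6% lower on polysomes, and 21.7% and 22.4% in Bmal1-/- livers. The counts of shared endothelial genes on polysomes are near these shares. Whether a list differs from all genes was not tested.

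Some of these other endothelial genes were rhythmic in wild-type total RNA: 4 of 11 further sinusoidal, 2 of 19 shared and 2 of 9 larger-vessel genes, beside 18.9% of all genes. Gata4, a transcription factor of sinusoidal cells, had a ratio of 1.69 with a peak at ZT 22.6 (adjusted p = 0.02086) and Oit3 a ratio of 1.44 with a peak at ZT 2.54 (adjusted p = 0.02654). Tek, which encodes TIE2, had a ratio of 1.58 (adjusted p = 0.007379) and Adgrl4 of 1.39 (adjusted p = 0.008682). Gja4, a gap junction gene, had a ratio of 1.99 (adjusted p = 0.003956) and Dll4 of 1.85 (adjusted p = 0.02985). Whether the lists differ from each other or from the 10 genes in their share of rhythmic genes was not tested.

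The partners of 3 of the receptors were also listed. Around KDR, all 6 of the VEGF ligands and other receptors tested on polysomes were lower, the co-receptors Nrp1 (-2.02 ± 0.14, SE) and Nrp2 (-0.98 ± 0.13) most. In nuclear RNA the ligand Vegfa was higher (1.19 ± 0.09) and Nrp1 lower (-0.44 ± 0.09), with 4 of 6 not called. In Bmal1-/- livers Nrp2 (-0.74 ± 0.10) and Vegfb (-0.41 ± 0.09) were among the 3 of 7 that were lower. The ligand Vegfc had 0.583 CPM ± 0.493 in wild-type and 2.335 ± 1.32 CPM in Bmal1-/- livers (SD, n = 36); it had enough counts to be tested only through the Bmal1-/- libraries, so its call is not counted. Around endoglin, 8 of 13 genes of BMP9 and BMP10 signalling were higher on polysomes and 1 lower. The inhibitor Smad7 (1.16 ± 0.14) and the target Id1 (1.14 ± 0.17) rose most, and Gdf2 (-0.43 ± 0.11), which encodes BMP9, fell. In nuclear RNA 6 of 12 were higher, with Smad7 (2.14 ± 0.12) and the receptor Acvrl1 (1.08 ± 0.19) first, and Smad4 (-1.10 ± 0.08) and Bmpr2 (-0.84 ± 0.07) were the lowest of 3 that were lower. In Bmal1-/- livers Smad9 (-0.90 ± 0.24) and Acvrl1 (-0.43 ± 0.16) were lower and Smad7 higher (0.28 ± 0.12). Around VE-PTP, Tie1 was higher in nuclear RNA (2.15 ± 0.09) and lower on polysomes (-0.36 ± 0.14). Tek was higher in both kinds of RNA (0.40 ± 0.11 and 0.48 ± 0.13). Over all genes tested, 41.6% were higher and 42.1% lower in nuclear RNA. On polysomes it was 38.4% and 37.6%, and in Bmal1-/- livers 21.7% and 22.4%. The nuclear count of BMP9 and BMP10 signalling genes is near these shares, and differences of these lists from all genes were not tested.

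Because the reads mark transcript ends, the site at which each transcript was cut and polyadenylated could also be compared, as a site's share of the counts at all sites of its gene in the authors' filtered list. Positions are those of the authors' lists (mm10), and the strand of Lyve1, Dnase1l3, Gpr182 and Ptprb was taken from where most of the site counts lay. Ptprb had 8 filtered sites, Eng and Dnase1l3 3, Stab1, Fcgr2b and Kdr 2, Stab2, Clec4g and Lyve1 1, and Gpr182 0. In nuclear RNA 10 of the 13 sites tested, which lie in 4 genes, differed in usage from total RNA (Ptprb 6, Eng 3, Stab1 1), beside 78.7% of all 11839 sites. In polysomal RNA 5 of 15 differed (Ptprb 3, Kdr 2), beside 70.4% of all sites. In Bmal1-/- RNA it was 2 of 15, beside 9.02%.

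Ptprb changed its sites most between the nucleus and total RNA. The site at 116389372-116389486 of chromosome 10, within the last bases of the annotated gene (116275502-116389538), held 21.5% ± 4.06 of its site counts in total RNA and 3.13% ± 1.81 in nuclear RNA (SD, n = 36). The lowest total RNA library had 14.3% and the highest nuclear library 7.82% (log2 difference -2.79 ± 0.12, SE, adjusted p = 2.999e-30 by edgeR). The share of all sites whose libraries did not overlap was not counted, and 78.7% of all 11839 sites were called in this comparison. The site at 116385546-116385609 went the other way, from 10.4% ± 2.29 in total to 43.0% ± 6.85 in nuclear RNA (2.04 ± 0.07, adjusted p = 4.291e-37). The site at 116384398-116384441 rose from 7.03% to 22.03%, and those at 116380844-116380953 and 116383850-116383944 fell from 14.1% to 2.74% and from 35.7% to 22.3%. The site at 116387020-116387070 fell from 8.65% to 2.77% (-1.72 ± 0.23, adjusted p = 5.572e-10). The most distal site, at 116389526-116389545, was not tested and held 1.89% in total, 3.50% in nuclear and 7.03% in polysomal RNA. On polysomes the site at 116385546 held 18.2% ± 8.03 (0.79 ± 0.12, adjusted p = 1.967e-08), between the total and the nuclear share, and that at 116380844 held 6.69% ± 4.64 (-1.04 ± 0.20, adjusted p = 6.555e-06). The distal site at 116389372 held 17.3% ± 5.81 (-0.31 ± 0.09, adjusted p = 0.001432), and was not called with libraries 4 to 6 alone (adjusted p = 0.06391).

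Kdr changed its sites on polysomes. Its annotated gene is at chromosome 5, 75932827-75979072, on the minus strand, and 2 sites near its end gave all its filtered counts. The distal site (75932823-75932995) held 29.8, 38.2 and 45.9% as lowest, median and highest share in total RNA and 8.26, 20.7 and 32.3% in polysomal RNA. The proximal site (75933275-75933480) rose from a mean of 61.6% to 79.4%. The distal share was lower by -0.90 ± 0.06 (log2, SE; adjusted p = 2.917e-22) on polysomes, where the level of the gene as a whole was not called different. In CPM the distal site went from 28.5 ± 5.0 to 16.5 ± 6.04 and the proximal one from 45.6 ± 6.66 to 63.0 ± 17.8 (SD, n = 36). In nuclear RNA the distal share was 37.3% ± 6.501 and was not called (adjusted p = 0.3170), and in Bmal1-/- RNA 37.0% ± 3.41 (adjusted p = 0.4212).

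Eng and Stab1 changed less. In Eng the site at chromosome 2, 32682095-32682129, held 68.0% ± 10.6 in total and 83.7% ± 5.95 in nuclear RNA (0.30 ± 0.04, adjusted p = 1.716e-09), and the sites at 32682608 and 32682644 fell (-0.91 ± 0.19 and -0.92 ± 0.16). In Stab1 the smaller site at chromosome 14, 31139143-31139202, fell in nuclear RNA (-0.36 ± 0.14, adjusted p = 0.02000), but not with libraries numbered 1 to 3 alone (adjusted p = 0.4627). Sites of the opposite strand overlap the ends of Eng and Stab1 in the authors' lists, and the sources used here do not state whether strand was used in counting genes, so their gene levels are less certain. In Bmal1-/- RNA the Fcgr2b site at chromosome 1, 170960583-170960696 (0.13 ± 0.04, adjusted p = 0.04790), and the Ptprb site at 116384398 (0.29 ± 0.09, adjusted p = 0.04257) were called. Neither was called with libraries 1 to 3 or 4 to 6 alone. With the replicate number as a block the Fcgr2b site was not called (adjusted p = 0.05569), while Fcgr2b site 170960720 (-0.34, adjusted p = 0.03567) and Ptprb site 116389372 (-0.16, adjusted p = 0.02597) were.

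Sites that the authors' filter left out held a larger share in nuclear than in total RNA in several of these genes. They were compared after the data had been seen. In Stab2 a site at chromosome 10, 86883296-86883338, far upstream of the gene's end within its annotated span (86841194-87008038), held 34.1% ± 9.03 of all site counts in nuclear RNA, 5.68% ± 3.23 in total and 0.788% ± 2.80 in polysomal RNA (SD, n = 36). Its lowest nuclear share was 19.5% and its highest total RNA share 19.3%, and the share of all sites with such ranges was not counted. In Stab1 the site at 31156486-31156497 held 17.9% ± 6.66 in nuclear, 4.51% ± 3.21 in total and 0.105% ± 0.629 in polysomal RNA. In Eng the site at 32675212-32675223 held 21.7% ± 9.59, 7.502% ± 4.36 and 0.199% ± 0.738, and in Kdr that at 75961771-75961817 held 10.5% ± 4.39, 4.31% ± 1.19 and 1.77% ± 1.80. Whether these sites lie in exons or introns was not determined here. Each of these was the site outside the filtered list with the highest nuclear share in its gene, so a high nuclear share follows in part from the choice. The polysomal share was below the total RNA share in these 4 genes and above it at the Lyve1 and Fcgr2b sites given next. All of these genes were picked after their values had been seen, so the low polysomal shares are a description and no separate support. In Lyve1 the site at chromosome 7, 110851307-110851316, near the main end, was instead high in nuclear (19.5% ± 16.4) and polysomal RNA (17.2% ± 10.7) against 4.30% ± 2.33 in total RNA. In Fcgr2b a site at chromosome 1, 170959777-170959786, held 16.7% ± 16.3 in nuclear, 4.14% ± 3.22 in total and 5.09% ± 6.29 in polysomal RNA.

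The nuclear excess of the 3 genes was also there at their filtered end sites. At the end of Stab2 (86841198-86841399) nuclear RNA had 32.1 ± 10.3 CPM and total RNA 17.0 ± 4.11 CPM, at the main end of Stab1 (31139012-31139125) 33.7 ± 14.2 and 9.86 ± 2.90 CPM, and at the main end of Eng 24.95 ± 7.42 and 4.78 ± 1.89 CPM (SD, n = 36). The internal site of Stab2 had 25.1 ± 11.1 CPM in nuclear RNA and 1.26 ± 0.627 CPM in total RNA.

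**Figure D4:**
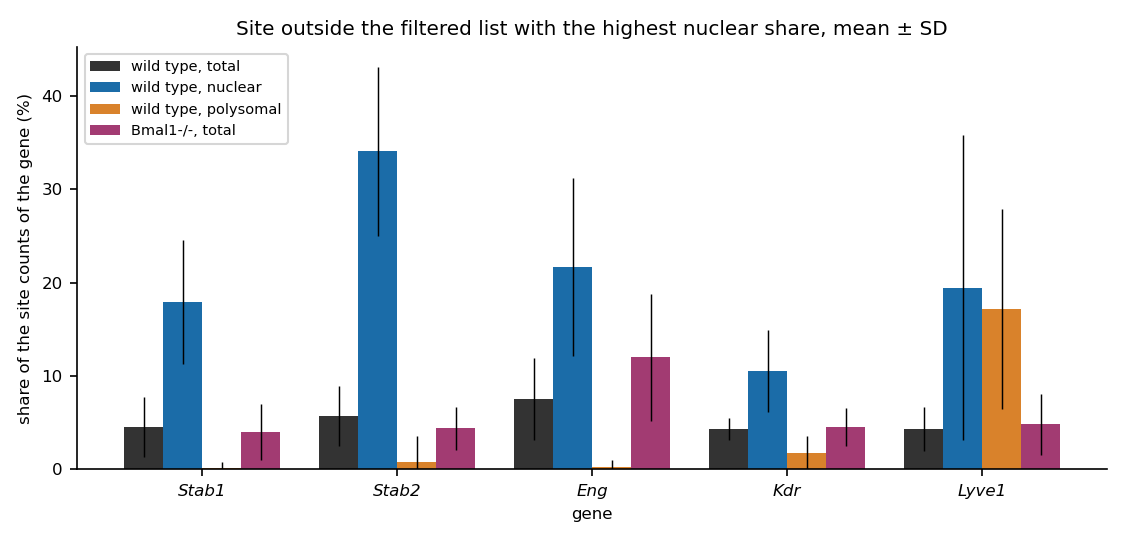
Share of all site counts of a gene at its site outside the filtered list with the highest nuclear share, for 5 genes, as mean ± SD of 36 libraries in each series. In Stab1, Stab2, Eng and Kdr the polysomal share lies between 0.105% and 1.77%, while in Lyve1 the nuclear share is 19.5% and the polysomal share 17.2%.

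How far the 10 genes moved together between libraries was described by Pearson's r of log2 CPM after time-point means were removed, over 36 libraries that share their depth and preparation. In wild-type total RNA the 45 pairs had a median r of 0.19 (-0.48 for Dnase1l3 and Ptprb to 0.68 for Stab1 and Stab2), and 32 were positive. In nuclear RNA all 45 were positive, with a median of 0.40 and the highest, 0.80, between Clec4g and Kdr. The median r of all genes with the mean of the 10 was also highest there, at 0.22, against 0.06 in wild-type total, 0.12 in polysomal and 0.06 in Bmal1-/- RNA. In polysomal RNA the median r of the 45 pairs was 0.23 and in Bmal1-/- total RNA 0.19. In wild-type total RNA Stab2 followed the other 9 genes closely (r = 0.76), and Ptprb did not (r = -0.09). The 5 other genes most like the mean of the 10 were Sparc (r = 0.79), Pml (0.79), C3 (0.77), Ncln (0.74) and Rack1 (0.74), against a median r of 0.06 over all 11964 genes of that series.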

How the data were processed

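The authors deposited raw counts per gene and per polyadenylation site for 144 libraries of 3′ mRNA-seq (QuantSeq, per the labels' protocols), and lists of site positions before and after a filter of theirs. The submitters' processing notes name STAR 2.4.2a, edgeR, HOMER, mm10 and GRCm38.p5. The counting tool, the filter and the use of strand are not given in the sources used here. The site positions are in other units than counts: start and end in the deposited lists, per the file headers and format.

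Counts were fitted with edgeR 4.0.16 (R 4.3.3; TMM scaling, robust quasi-likelihood F test, a mean count of 10 or more, Benjamini-Hochberg adjustment over all genes tested, threshold 0.05). A level is the mean of the 6 time-point means. Rhythm is a cosine and sine of 24 h. Site usage was fitted with the gene's site total as an offset. DESeq2 1.42.0 was an alternative. The fits were tested on simulated data.

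The 10 genes and all lists were chosen with earlier results of these data known. Named genes are the 10, the 2 largest rises and falls called in each endothelial and signalling list and comparison, the 2 largest rhythms called per endothelial list, the 5 genes most like the mean of the 10, and sites with at least 5% of a gene's site counts. Sites outside the filtered list were chosen after their values were seen. Alternatives were other size factors, a lower count minimum for genes, a minimum of 200 counts per gene for sites, time point as a factor, all 4 series in 1 fit, libraries 1 to 3 or 4 to 6 alone, the replicate number as a block over all times or within each time, and leaving out the polysomal libraries numbered 1 or those with Xist above 100 CPM.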

Additional observations from a re-analysis of the deposited data

Results flagged for a closer look

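Each gene was examined in the 6 libraries of each time point and series, which makes 240 groups, for a highest or lowest library far from the rest. Chance flags about 1 in 20 groups, and 19 were found. Lyve1 had 5 of them: 55.9 CPM in wild-type total RNA at ZT 2 (replicate 2, next 34.4), 45.9 CPM at ZT 14 (replicate 4, next 29.3), a low 4.35 CPM in nuclear RNA at ZT 2 (replicate 1, next 8.76), 57.2 CPM in polysomal RNA at ZT 2 (replicate 5, next 15.3) and 49.6 CPM in Bmal1-/- RNA at ZT 2 (replicate 1, next 19.9).

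In the nuclear series Stab1 was high at ZT 6 (replicate 6, 92.5 CPM) and ZT 22 (replicate 5, 112.7 CPM), and Gpr182 at ZT 18 (replicate 2, 9.38 CPM). In wild-type total RNA Stab2 was low at ZT 2 (replicate 4, 15.2 CPM) and Fcgr2b at ZT 18 (replicate 2, 17.5 CPM).

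Of the polysomal libraries, replicate 1 was high for Stab2 at ZT 14 (29.96 CPM), Clec4g at ZT 6 (59 CPM), Fcgr2b at ZT 14 (44.3 CPM), Gpr182 at ZT 6 (5.62 CPM) and Eng at ZT 22 (19.0 CPM), and replicate 2 was high for Ptprb at ZT 6 (98.7 CPM). In Bmal1-/- RNA Clec4g was low at ZT 6 (replicate 2, 31.5 CPM), Gpr182 high at ZT 10 (replicate 5, 3.02 CPM) and Ptprb high at ZT 22 (replicate 1, 176.8 CPM, next 101.2).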

How the results depend on the processing

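Over the alternatives listed with the methods, 89 counts of genes or sites called were equal to the value reported or within 1.5 times of it, and 8 were not. Most of the 89 are counts of rhythms or rhythm differences that were 0 and stayed 0, so the tally says little about the counts above 0. Of single genes and sites, 969 values kept their side of the threshold, 25 lost the call, 10 gained one and 1 changed sign. The 969 include many rhythm values that were not called to begin with. A change of sign was counted only if the reported or the alternative value was called, and no direction was compared for rhythms. The exceptions among the counts were 4 genes on polysomes and 2 in Bmal1-/- livers with libraries 1 to 3 alone, against 9 and 5; 1 rhythmic gene in wild-type total RNA by DESeq2 and 1 with time point as a factor, against 0; with a minimum of 200 counts per gene, 6 nuclear sites and 1 Bmal1-/- site, against 10 and 2; and 0 Bmal1-/- sites with libraries 1 to 3 alone and 0 with libraries 4 to 6 alone. With all sites of the unfiltered list, 20 nuclear and 8 polysomal sites were called, and the nuclear differences of Kdr site 75933275 (-0.11) and Stab1 site 31139012 (-0.16) turned negative; more sites enter each gene's total there. Ptprb turned to -0.024 in nuclear RNA with libraries 1 to 3 alone. For the other exceptions the cause was not tested. Without the polysomal libraries numbered 1, 8 genes were called. Over all genes, the count rhythmic in wild-type total RNA ran from 622 to 3039 (2260 reported), in nuclear RNA from 174 to 996 (669) and in polysomal RNA from 115 to 2679 (845). Of the genes called different on polysomes, 50.5% were higher, and 40.4% with the minimum mean lowered to 1 count.

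With the replicate number as a block, 10 nuclear, 9 polysomal and 5 Bmal1-/- differences in level, 0 rhythms and 10, 5 and 3 sites were called (of the 2 Bmal1-/- sites reported, 1 was lost and 2 others were gained); with the number within each time point as the block, 10 nuclear and 8 polysomal, where Gpr182 was not called (adjusted p = 0.08064). Deviations of same-numbered libraries from their group means correlated with a mean r of 0.35 for nuclear (34 of 36 pairs above 0.1), -0.13 for polysomal and 0.07 for Bmal1-/- against wild-type total RNA, so no series had every pair above 0.1, and the number was not used as a pairing in the values reported; the labels do not say what it marks. The nuclear library correlated best with its own number in 32 of 36 cases, the polysomal in 0 and the Bmal1-/- in 13. The SE and p-values reported for nuclear RNA take no account of this likeness by number.

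Gpr182, with a mean of 16.03 to 19.4 counts per library in the 4 series, is limited most by depth.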
